A study of Mus musculus with 24 samples.

Results

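The comparison asks how the liver's response to phenobarbital changed when CAR was lost in mice that already lacked PXR. It sets the 6 arrays of CAR/PXR-deficient mice against the 6 arrays of PXR-deficient mice, 12 of the 24 arrays of the study. Its groups were defined by these genotype labels alone, though the comparison was chosen with earlier results of these data known. The other 12 arrays, from wild-type (WT) and CAR-deficient mice, were used for the spread between samples and for 1 further contrast. The first 2 PXR-deficient arrays differed from each other by about the sampling noise between replicate spots (variance ratio 1.04, where the other 59 pairs of arrays within a genotype gave 1.79 to 52.9), so they were counted as 1 sample, written 1-2. This left 11 samples in the comparison and 23 in all.

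All mice were male and of the C57BL/6J strain, and the PXR-deficient, CAR/PXR-deficient and CAR-deficient mice were 9 to 12 weeks old. The labels used here give no age for WT mice. Treated mice received 100 mg/kg phenobarbital by intraperitoneal injection and were killed 12 h later. Both groups lack PXR, so the comparison shows CAR loss without PXR, not CAR loss in a normal liver. The labels name no allele or mouse line. On each 2-colour array the red channel (Cy5) held RNA of phenobarbital-treated liver. The green channel (Cy3) held 1 pool of RNA from 6 livers of vehicle-treated mice of the same genotype (5% DMSO in corn oil, 12 h). The log2 Cy5/Cy3 ratio of a probe is therefore its response to phenobarbital, positive where the treated liver was brighter, and each genotype has its own baseline. All arrays of a genotype share that 1 pool, so every p-value of a ratio leaves out the variation between pools. No dyes were swapped. Since no label states that each replicate is its own mouse, the p-values reflect the spread among these arrays, which may be partly technical.

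CAR (constitutive androstane receptor) and PXR (pregnane X receptor) are nuclear receptors of the hepatocyte that pair with RXR on regulatory DNA. They control overlapping sets of genes for cytochromes P450, conjugating enzymes and transporters, and both also touch bile acid, sterol and lipid metabolism. Phenobarbital is the classic activator of CAR in mouse liver: it acts indirectly, through loss of epidermal growth factor receptor signalling, after which CAR enters the nucleus and genes such as those of the Cyp2b family are transcribed. Phenobarbital can also activate PXR, so mice that lack PXR show what remains of the response through CAR and other routes.

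The array is a focused design for drug metabolism and cholesterol homeostasis, with 120 mouse probes in 3 spots each. The files used here do not pair the probe numbers with genes, so probes are given by number, without role or sequence. For the same reason neither the receptors' own transcripts nor liver markers could be looked up, and the genotype and tissue labels were not checked. Of the 120 probes, 80 were bright enough to be tested: in either channel, 2 or more of their 3 spots exceeded the local background by 2 SD, on 12 arrays or more.

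The arrays differed in quality. Between 79 and 109 probes per array were above background in CAR/PXR-deficient samples and between 46 and 106 in PXR-deficient samples, with 46 and 47 on PXR-deficient replicates 5 and 6. CAR/PXR-deficient replicates 1 and 2 stood apart: their median Cy5 signal was 0.217 and 0.210 times their median Cy3 signal, against 0.829 to 1.02 in the other 4 arrays of the group. Array profiles correlated at r of 0.83 to 0.98 within the PXR-deficient group and of -0.10 to 0.77 within the CAR/PXR-deficient group, with replicate 6 the least alike (-0.10 to 0.43). The median SD of a tested probe between samples was 0.24 and 0.30 in these groups. In the CAR-deficient group it was 0.20 with r as low as -0.07, so a low r did not go with a wider spread there. The part of these array differences in the results was not tested beyond leaving the arrays out.

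Loss of CAR changed the phenobarbital response of PXR-deficient liver for 26 of the 80 tested probes (32.5%) in a limma fit at an adjusted p of 0.05. The response was lower in CAR/PXR-deficient mice for 15 probes (18.8% of those tested) and higher for 11 (13.8%). The largest differences were losses of strong responses. Probe Mm038 responded at a mean log2 ratio of 3.43 ± 0.62 (SD, n = 5) in PXR-deficient liver and at -0.10 ± 1.14 (SD, n = 3) in CAR/PXR-deficient liver. In bulk liver, fewer cells of a type and less RNA per cell cannot be told apart.

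Of the 26 differences, 11 were over 2-fold, 8 of them lower and 3 higher. The samples of the 2 groups did not overlap for 19 of the 26 probes, and for 21 of all 80 probes (26.2%). The median absolute difference was 0.85 on the log2 scale over the 26 probes, which were selected for passing, and 0.33 over all tested probes. Without CAR/PXR-deficient replicates 1 and 2, 18 probes passed (6 higher, 12 lower), all 18 among the 26. With all 24 arrays counted, which splits sample 1-2 again, 34 probes passed, with or without the array's position on the slide as a term. With neighbouring replicate numbers as a random block (correlation 0.38), 19 passed. With other alike pairs of arrays counted once (PXR-deficient replicates 3 and 4, WT replicates 2 and 6), 21 passed. Within the arrays at the high position alone 13 passed, and within those at the low position 12.

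The direction of a difference is relative to the other probes of the array, since each array was normalized by loess (a curve that sets the typical log2 ratio to 0 at every brightness). The median difference over all tested probes was -0.0043. Centring the arrays on their calibration spike-ins instead moved this median to 0.92, and the authors' deposited table put it at 0.98. The labels name different spike-in additions for the treated and the pool channel, so spike-in centring may not reflect equal amounts in both. By these scales the split became 30 higher and 3 lower (33 probes) and 34 higher and 3 lower (37 probes). Of the 26 differences, 20 kept their sign under spike-in centring and 18 in the authors' deposited table. Measured against the median of the same scale, 26 of 26 kept it in both. This step takes the shift out, and the 26 were selected by their difference relative to the other probes. It is therefore no separate test of the signs. CAR/PXR-deficient replicates 1 and 2, the arrays with low Cy5 signal, stood apart on both scales. Their probe medians lay 2.21 and 2.81 above the spike-ins, against 0.50 to 0.95 in the other arrays of the group. In the authors' deposited table their medians were 2.65 and 2.95, against 0.39 to 0.98. Their part in the shift was not tested.

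**Figure D1:**
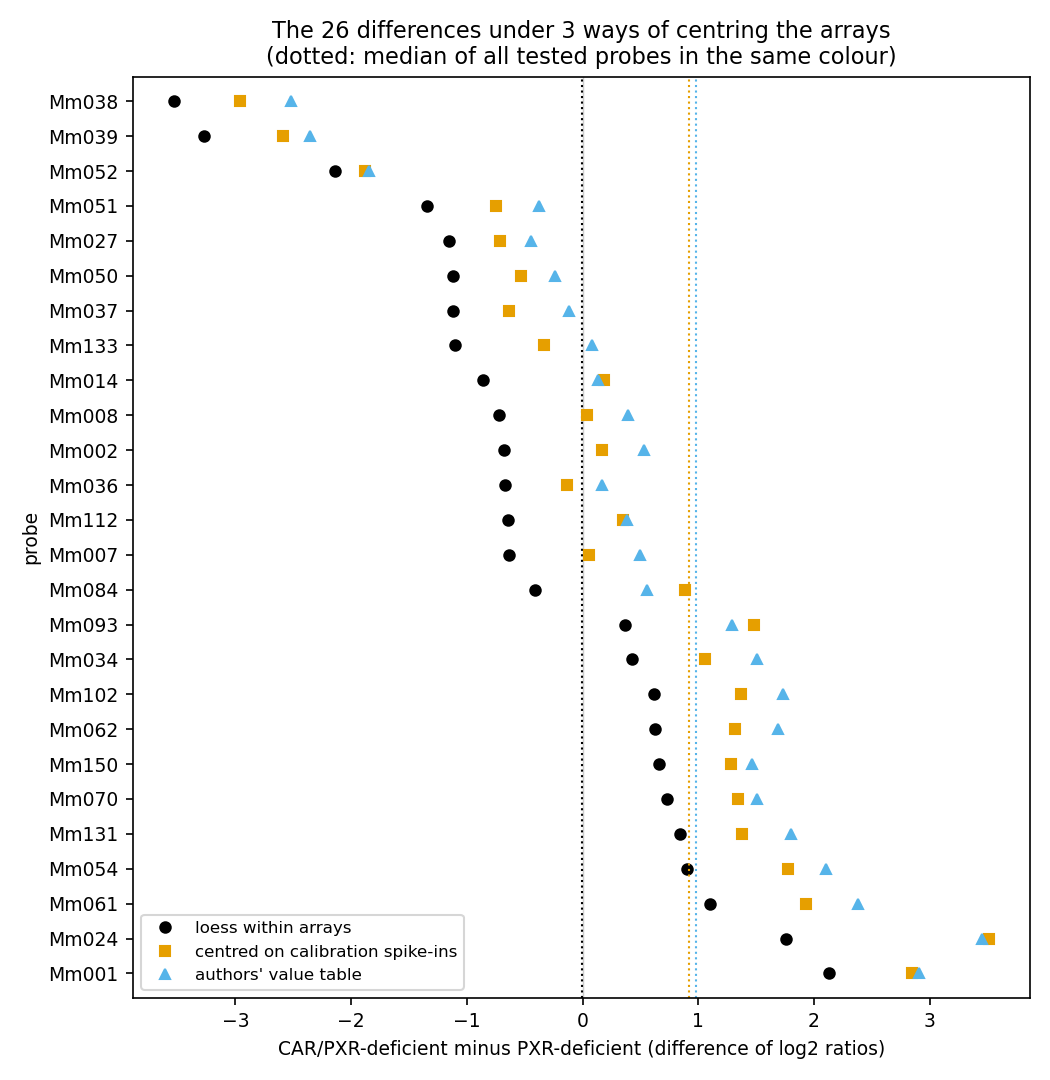
Difference of log2 ratios, CAR/PXR-deficient minus PXR-deficient, for the 26 probes that passed, under loess (black), calibration spike-ins (orange) and the authors' deposited table (blue). Dotted lines mark the median of all tested probes on each scale (-0.0043, 0.92 and 0.98), and Mm038, Mm039 and Mm052 lie far below 0 on every one.

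The responses of the 2 groups separate these differences by kind. In PXR-deficient liver 26 of 80 responses passed (32.5%), with 16 rises and 10 falls. In CAR/PXR-deficient liver 27 passed (33.8%), with 13 rises and 14 falls. Among the 15 lower probes, 9 rose in PXR-deficient liver and did not pass in CAR/PXR-deficient liver, 5 fell in CAR/PXR-deficient liver only by the test, and 1 rose in the first and fell in the second. Among the 11 higher probes, 6 fell in PXR-deficient liver and did not pass in CAR/PXR-deficient liver, 4 rose in CAR/PXR-deficient liver and did not pass in PXR-deficient liver, and 1 fell in the first and rose in the second. The calls of Mm007, Mm008, Mm024, Mm027, Mm034, Mm070 and Mm131 in PXR-deficient liver were each lost without at least 1 single sample (adjusted p up to 0.158, for Mm008 without PXR-deficient replicate 3). Under both other scales the 6 falls in CAR/PXR-deficient liver became positive log2 ratios. These responses are counted relative to the typical probe of the array. By the other scales its response was 1.23 and 1.34 in CAR/PXR-deficient liver and 0.33 and 0.35 in PXR-deficient liver. The values of CAR/PXR-deficient liver include replicates 1 and 2, whose array medians lay far above the others of the group on both scales.

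**Figure D2:**
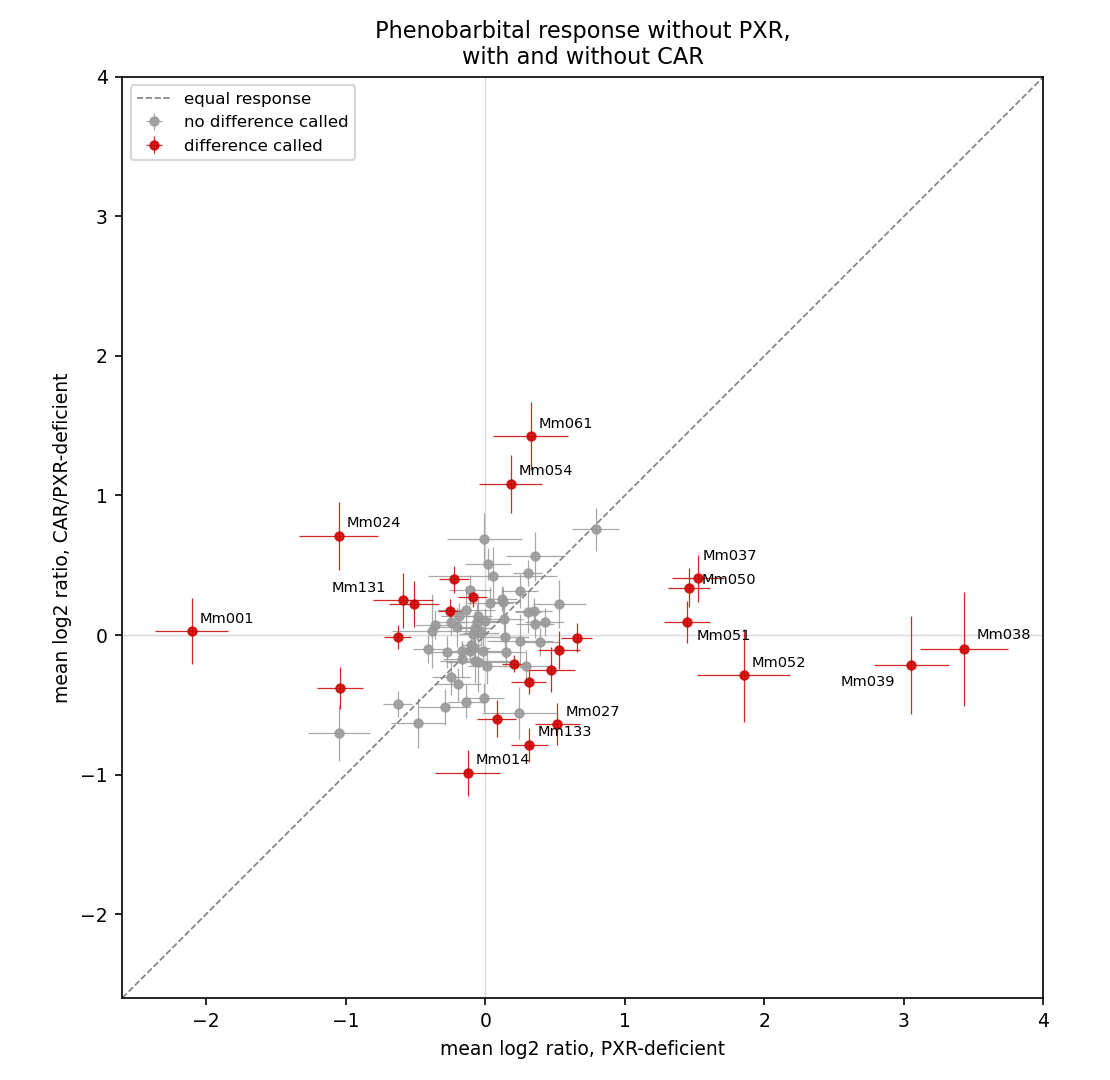
Mean log2 ratio (phenobarbital over vehicle) in CAR/PXR-deficient liver against that in PXR-deficient liver, 1 point per tested probe, with bars of 1 SE from the limma fit. Red points passed the test of the difference, and the dashed line marks equal responses: Mm038 and Mm039 lie far to the right near 0, and Mm001 far to the left near 0.

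The responses lost with CAR came first. Mm038 had log2 ratios of 3.34, 4.14, 3.94, 3.15 and 2.60 in PXR-deficient samples 1-2, 3, 4, 5 and 6. In CAR/PXR-deficient mice it gave a ratio in 3 samples only, -1.18, -0.22 and 1.09 in replicates 1, 3 and 4. All 5 PXR-deficient values lay above the 3 others, and the difference was -3.53 (SE 0.51, adjusted p = 9.58e-05). In the other 3 CAR/PXR-deficient arrays every spot of this probe was flagged, and 2 of 6 arrays showed treated signal above background, so no exact fold is given.

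Mm039 followed the same pattern at a similar size. It read 3.20, 3.56, 3.33, 2.86 and 2.32 in PXR-deficient samples, and CAR/PXR-deficient replicates 1, 3 and 4 gave -1.27, -0.23 and 0.85. The groups did not overlap, and the log2 difference was -3.27 (SE 0.44, adjusted p = 7.97e-05), with the same limit: 12 of its 18 spots in CAR/PXR-deficient mice were flagged. Mm038 and Mm039 kept the call in each of 36 other settings, with adjusted p up to 0.036 and 0.026. On the arrays of the low position alone their differences shrank to -2.18 and -2.04.

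Mm052 was the third of the strongly lowered probes but rested on few values. Its log2 ratio was 2.03 and 1.68 in PXR-deficient samples 1-2 and 6, and -0.56 and -0.02 in CAR/PXR-deficient replicates 3 and 5. These 4 values did not overlap between groups, and the response was 4.41-fold lower (log2 difference -2.14, SE 0.47, adjusted p = 0.00318). Of its 18 spots in each group, 12 in CAR/PXR-deficient and 13 in PXR-deficient mice carried the flag of saturated spots and were left out.

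Mm051 responded in every PXR-deficient sample and stayed near 0 in every CAR/PXR-deficient one. The PXR-deficient log2 ratios were 1.76, 1.52, 1.25, 1.41 and 1.27. The 6 CAR/PXR-deficient values ran from -0.07 through a median of 0.13 to 0.21. The gap between groups was wide against a SD of 0.21 and 0.10, and the response was 2.54-fold lower (log2 difference -1.35, SE 0.22, adjusted p = 7.97e-05).

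Mm050 and Mm037 were lower without CAR by less. Mm050 read 2.03, 1.72, 1.38, 1.23 and 0.94 in PXR-deficient samples and from -0.18 through a median of 0.30 to 0.86 in CAR/PXR-deficient ones (log2 difference -1.12, SE 0.21, adjusted p = 0.000216). Mm037 read 1.24, 1.59, 2.32, 1.53 and 0.94 against 0.14, 0.37 and 0.65 as lowest, median and highest (log2 difference -1.12, SE 0.25, adjusted p = 0.00148). Neither probe's groups overlapped. The mean log2 ratios in CAR/PXR-deficient liver, 0.34 for Mm050 and 0.41 for Mm037, did not pass against 0 (both adjusted p = 0.0633). The calls of Mm051, Mm050, Mm037 and of Mm027 below were lost only under spike-in centring (adjusted p = 0.116 to 0.180) and in the authors' deposited table (0.327 to 0.791).

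The other 3 lost responses were smaller. Mm036 had a mean log2 ratio of 0.65 in PXR-deficient and -0.02 in CAR/PXR-deficient liver (difference -0.67, adjusted p = 0.00148), and its samples did not overlap. Mm007 had means of 0.53 and -0.11 (difference -0.64, adjusted p = 0.0189), with overlapping samples. Mm008 read 0.33, 0.85, 0.75, 0.76 and -0.35 in PXR-deficient samples and from -0.67 through a median of -0.29 to 0.19 in CAR/PXR-deficient ones (difference -0.72, SE 0.24, adjusted p = 0.0249). Its groups overlapped through PXR-deficient replicate 6, the lowest of its group. The last 2 calls lay near enough to the threshold to be lost without single samples. Mm007 was lost without PXR-deficient replicate 3 or 4 (adjusted p = 0.0511 and 0.0691), and Mm008 without CAR/PXR-deficient replicate 1, 2 or 6 or PXR-deficient replicate 3, 4 or 5 (0.0504 to 0.0736).

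Mm027 was the 1 probe whose response changed sides. Its log2 ratios were 0.64, 0.74, 1.07, 0.17 and -0.04 in PXR-deficient samples and -1.15 at the lowest, -0.56 at the median and -0.19 at the highest in CAR/PXR-deficient ones. The groups did not overlap, and the difference was -1.15 (SE 0.22, adjusted p = 0.00031). The rise in PXR-deficient liver (adjusted p = 0.0201) was lost without sample 1-2, 3 or 4 (0.0535, 0.0771 and 0.126).

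**Figure D3:**
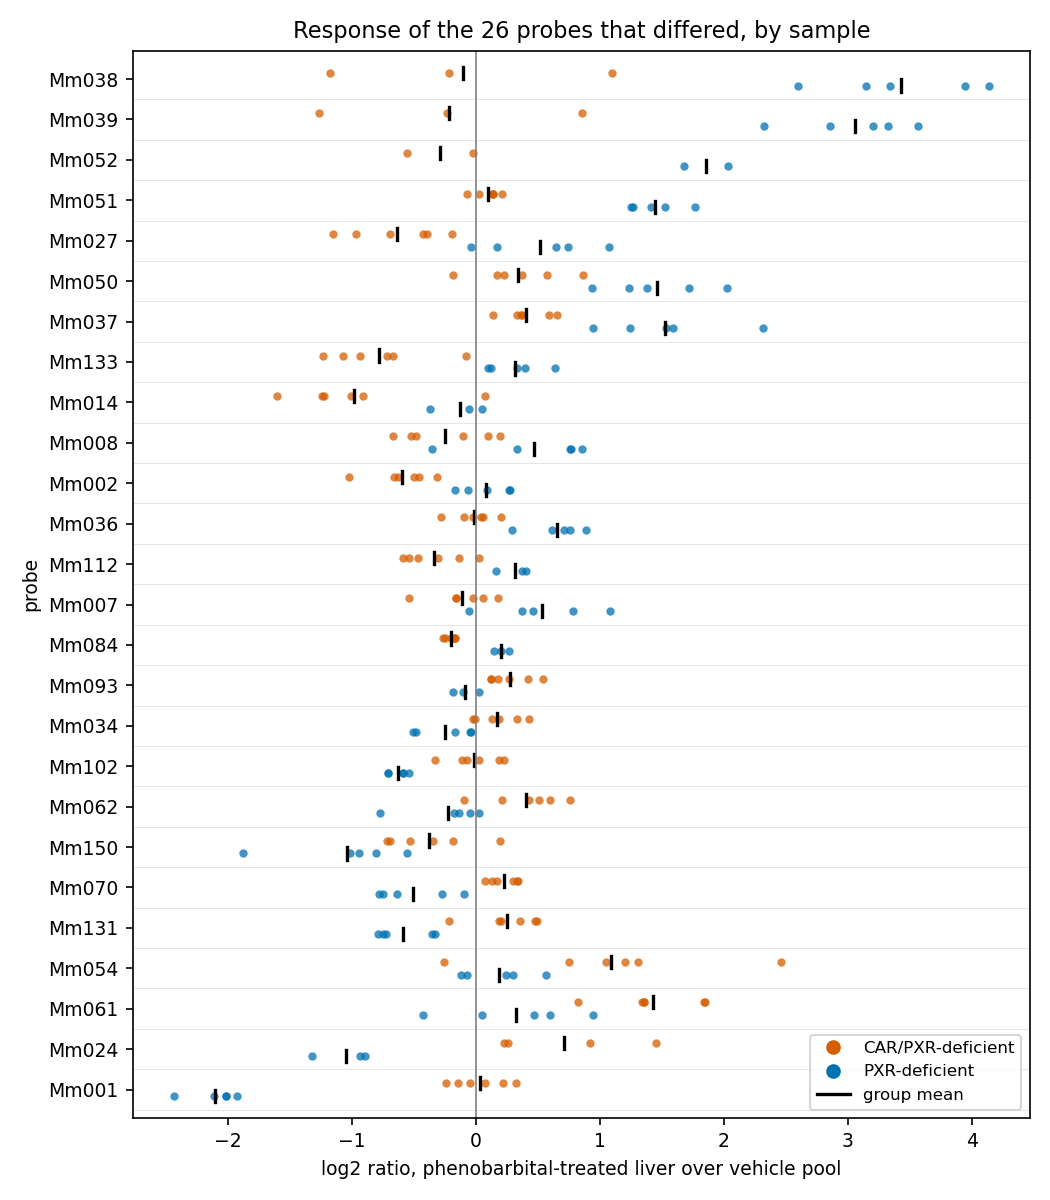
Log2 ratio (phenobarbital over vehicle) of each sample for the 26 probes that passed, PXR-deficient and CAR/PXR-deficient, with each group's mean. Mm051 sits at 1.25 to 1.76 against -0.07 to 0.21, while the groups of Mm008 and Mm150 overlap.

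A second set of lower probes fell in CAR/PXR-deficient liver. Mm133 read 0.39, 0.10, 0.33, 0.12 and 0.64 in PXR-deficient samples and from -1.24 through a median of -0.83 to -0.08 in CAR/PXR-deficient ones. No sample overlapped, and the difference was -1.10 (SE 0.18, adjusted p = 7.97e-05). The pools carried nearly all of this difference (0.95, against -0.15 in the treated livers). Its highest CAR/PXR-deficient value, -0.08, came from replicate 6, the array least like the rest of its group.

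Mm014 was also low in 5 of 6 CAR/PXR-deficient samples. Its 6 values ran from -1.61 through a median of -1.12 to 0.07, again highest in replicate 6, against -0.06, 0.05 and -0.37 in PXR-deficient samples 1-2, 3 and 4. The groups overlapped through that 1 sample, and the difference was -0.86 (SE 0.28, adjusted p = 0.0249). Its call was lost without CAR/PXR-deficient replicate 2 (adjusted p = 0.0508) or PXR-deficient sample 1-2 or 3 (0.0697 and 0.0863).

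The 3 remaining probes of this set did not overlap between groups. Mm002 had mean log2 ratios of -0.60 and 0.08 in CAR/PXR-deficient and PXR-deficient liver (difference -0.68, adjusted p = 0.00873), Mm112 of -0.34 and 0.31 (-0.65, 0.00318), and Mm084 of -0.21 and 0.20 (-0.41, 0.00685). Without CAR/PXR-deficient replicates 1 and 2 together, the calls of Mm002 (adjusted p = 0.0591), Mm014 (0.0939) and Mm008 (0.1001) were lost. The call of Mm084 was lost with median centring (difference -0.096, adjusted p = 0.779) and when only the spots flagged as saturated were left out (0.0559). Mm112 and Mm084 had ratios in 3 PXR-deficient samples only, and Mm084 was above background on 3 of 6 PXR-deficient arrays in the treated channel. For Mm002 the unreplicated pools differed by 0.88 and the treated livers by 0.20, opposite to the response. Of the lower probes, 6 turned positive under spike-in centring (Mm002, Mm007, Mm008, Mm014, Mm084 and Mm112), and these together with Mm036 and Mm133 did so in the authors' deposited table.

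Falls that were lost with CAR were led by Mm001. Its log2 ratio was -2.02, -2.02, -2.44, -2.12 and -1.93 in PXR-deficient samples. In CAR/PXR-deficient samples it ran from -0.24 through a median of 0.01 to 0.32. The 2 groups lay far apart relative to their SD of 0.20 and 0.22, and the difference was 2.13 (SE 0.35, adjusted p = 7.97e-05), or 4.39-fold. The unreplicated pools differed by -1.63 and the treated livers by 0.51. The call held in each of 38 other settings, with adjusted p up to 0.0043. All settings used the same 1 pool per genotype, so they cannot test a difference between the pools. The treated level of Mm001 did not pass.

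Mm102 showed the same shape at a smaller size. It read -0.71, -0.59, -0.54, -0.71 and -0.59 in PXR-deficient samples and from -0.33 through a median of -0.02 to 0.22 in CAR/PXR-deficient ones, without overlap (difference 0.61, SE 0.13, adjusted p = 0.000901). The call was lost only among the arrays of the low position (adjusted p = 0.0884). Mm034 read -0.17, -0.05, -0.04, -0.48 and -0.51 against -0.03, 0.16 and 0.43 as lowest, median and highest, with groups that nearly touched (difference 0.42, SE 0.12, adjusted p = 0.00937). Its call was lost without PXR-deficient replicates 5 and 6 together (difference 0.26, adjusted p = 0.126), with median centring (0.23, 0.330) and within each slide position (0.130 and 0.149).

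The calls of Mm131, Mm070 and Mm150 lay near the threshold and were each lost without single samples. Mm131 read -0.36, -0.75, -0.73, -0.79 and -0.33 in PXR-deficient samples and from -0.22 through a median of 0.28 to 0.50 in CAR/PXR-deficient ones (difference 0.84, SE 0.29, adjusted p = 0.0276). Mm070 read -0.10, -0.79, -0.75, -0.64 and -0.27 against 0.07, 0.24 and 0.34 as lowest, median and highest (difference 0.73, SE 0.24, adjusted p = 0.0243). Neither probe's groups overlapped. Mm150 read -0.56, -0.80, -1.02, -1.88 and -0.95 against -0.72, -0.44 and 0.19, with overlapping groups (difference 0.66, SE 0.23, adjusted p = 0.0265). The call of Mm131 was lost without CAR/PXR-deficient replicate 1, 2 or 3 or PXR-deficient replicate 3, 4 or 5 (adjusted p = 0.0508 to 0.0671). Mm070 was lost without PXR-deficient replicate 3, 4 or 5 (0.0507 to 0.0646), and Mm150 without CAR/PXR-deficient replicate 1 or 6 or PXR-deficient replicate 4 or 5 (0.0517 to 0.106). Without CAR/PXR-deficient replicates 1 and 2 together the 3 probes had adjusted p of 0.0949, 0.0684 and 0.0939. For Mm131 and Mm150 the unreplicated pools differed by -1.10 and -0.78. Their treated livers differed by -0.27 and -0.12, opposite to the response.

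Mm024 fell in PXR-deficient liver and rose in CAR/PXR-deficient liver. It read -0.89, -0.93 and -1.32 in PXR-deficient samples 1-2, 3 and 4 and 1.45, 0.26, 0.22 and 0.92 in CAR/PXR-deficient replicates 1 to 4. All 4 values lay above the 3, and the difference was 1.76 (SE 0.37, adjusted p = 0.00498), or 3.39-fold. The difference held in each of 36 other settings, but the rise itself (adjusted p = 0.0475) was lost in 18 settings, among them without CAR/PXR-deficient replicate 1 (0.205) or 4 (0.126). The probe was dim, with the treated channel above background on 4 of 6 CAR/PXR-deficient and 2 of 6 PXR-deficient arrays.

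The last set rose in CAR/PXR-deficient liver and did not pass in PXR-deficient liver. Mm061 ran from 0.82 through a median of 1.35 to 1.85 in CAR/PXR-deficient samples, against -0.43, 0.47, 0.59, 0.95 and 0.05 in PXR-deficient ones. The groups overlapped only between the lowest and the highest of these, and the difference was 1.10 (SE 0.36, adjusted p = 0.0243). Its call was lost without PXR-deficient sample 1-2 (adjusted p = 0.0697), the lowest of its group, and without CAR/PXR-deficient replicates 1 and 2 together (0.0589).

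Mm054 varied most in this set. Its CAR/PXR-deficient values ran from -0.26 in replicate 6 through a median of 1.13 to 2.46 in replicate 4, against -0.07, 0.30, 0.24, 0.56 and -0.12 in PXR-deficient samples (difference 0.90, SE 0.31, adjusted p = 0.0265). The call was lost without CAR/PXR-deficient replicate 4 or PXR-deficient sample 1-2, 4 or 6 (adjusted p = 0.0506 to 0.0624). Mm062 ran from -0.10 through 0.47 to 0.76 against -0.14, -0.18, -0.05, -0.77 and 0.02, with a small overlap (difference 0.62, SE 0.14, adjusted p = 0.00175). Its call was lost at the low position (0.29, adjusted p = 0.338) and with median centring (0.49, 0.0526). Mm093 was the smallest called difference, with mean log2 ratios of 0.28 and -0.09 (difference 0.37, adjusted p = 0.0306), and was lost without CAR/PXR-deficient replicate 1, 2 or 4 or PXR-deficient replicate 3 or 4 (0.0508 to 0.121).

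Over all single samples left out in turn, 17 of the 26 calls held each time and 9 were lost at least once, and the count of calls ran from 19 (without PXR-deficient replicate 4) to 27. Nearest to the threshold without passing it were Mm092 (difference -0.45, adjusted p = 0.0528), Mm126 (-0.52, 0.0528) and Mm154 (0.34, 0.0604).

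The difference of log2 ratios mixes the treated livers with the baseline of each genotype, so the channels were also compared apart. Levels per channel, on a log2 scale made comparable between arrays, are levels of the treated liver or of the vehicle pool. In the treated channel 5 of 80 probes passed (6.25%), 4 lower (5% of those tested) and 1 higher (1.25%) in CAR/PXR-deficient liver, and 15 did at an unadjusted p under 0.05. The pool is 1 RNA pool per genotype, so a difference between the pools has no replicate and was not tested.

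The treated signal of Mm039 and Mm038 was far lower without CAR. For Mm039 the treated level ran from 7.74 through a median of 8.35 to 9.28 in CAR/PXR-deficient samples and was 12.27, 12.54, 12.45, 12.45 and 12.22 in PXR-deficient ones (log2 difference -4.01, SE 0.28, adjusted p = 3.04e-12). For Mm038 it ran from 7.75 through 8.41 to 9.09 against 12.22, 12.16, 12.18, 12.57 and 12.62 (log2 difference -3.96, SE 0.30, adjusted p = 5.43e-12). Both probes were above background in the treated channel on 6 of 6 PXR-deficient arrays and on 2 of 6 CAR/PXR-deficient arrays, so their low level lies close to what the arrays could measure. On unflagged spots alone the treated differences were -3.43 for Mm039 and -3.06 for Mm038.

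Mm037 and Mm050 were lower in treated CAR/PXR-deficient liver as well. The treated level of Mm037 ran from 10.02 through 10.39 to 11.02, against 11.51, 11.70, 12.35, 12.36 and 11.76 (log2 difference -1.49, SE 0.35, adjusted p = 0.00578). That of Mm050 ran from 12.34 through 12.80 to 13.25, against 14.55, 14.29, 14.04, 13.90 and 13.17 (log2 difference -1.18, SE 0.29, adjusted p = 0.00839). The groups of Mm037 did not overlap and those of Mm050 met at PXR-deficient replicate 6. Mm037 was lost without PXR-deficient replicates 5 and 6 together (adjusted p = 0.059), at the high position (0.197) and with neighbouring replicate numbers as a random block (0.0546). Mm050 was lost within each slide position (0.091 and 0.131) and with quantile normalization of the Cy5 channel (difference -0.81, adjusted p = 0.128).

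Mm088 was the 1 probe with a higher treated level in CAR/PXR-deficient liver. It ran from 9.45 through 9.74 to 10.45 against 8.98, 9.50, 9.36, 9.34 and 8.28, with a slight overlap (log2 difference 0.77, SE 0.24, adjusted p = 0.0486). Its difference of log2 ratios, 0.49, did not pass (adjusted p = 0.0657). The treated call was lost in 14 other settings, among them without CAR/PXR-deficient replicate 2, 3, 4 or 6 (adjusted p = 0.0532 to 0.0877) and without PXR-deficient sample 1-2 or 6 (0.104 and 0.124).

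Over the 26 probes, the treated level differed in the same direction as the response for 21, 12 of the 15 lower and 9 of the 11 higher. The treated channel carried the larger share for 15 probes (10 lower, 5 higher), and the pools differed more for 10. Mm133 was one of these: its treated levels were close (10.73 in CAR/PXR-deficient and 10.88 in PXR-deficient liver), while the pools read 11.51 and 10.56. For Mm001 the treated level was 9.89 against 9.39, while the pool read 9.86 in CAR/PXR-deficient and 11.49 in PXR-deficient mice. For Mm014 the treated level was even higher in CAR/PXR-deficient liver (9.44 against 9.06), and the pool was higher by more (10.42 against 9.37). Mm002, Mm027, Mm024, Mm062, Mm093, Mm131 and Mm150 also differed more between the pools than between the treated livers. For Mm002, Mm131 and Mm150 the treated level differed in the direction opposite to the response, as for Mm014. None of the 10 had a treated level that passed. The remaining probe, Mm084, differed more between the treated livers, but in the direction opposite to its response. These levels leave out only the spots flagged as saturated, while the ratios leave out every flagged spot. On the unflagged spots of the ratios, 22 treated levels differed in the direction of the response and the treated part was larger for 17. There the treated part was the larger for Mm024 (1.19, against -0.57 in the pools) and Mm093 (0.21 and -0.16), and Mm084 followed its response (-0.20 and 0.21).

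**Figure D4:**
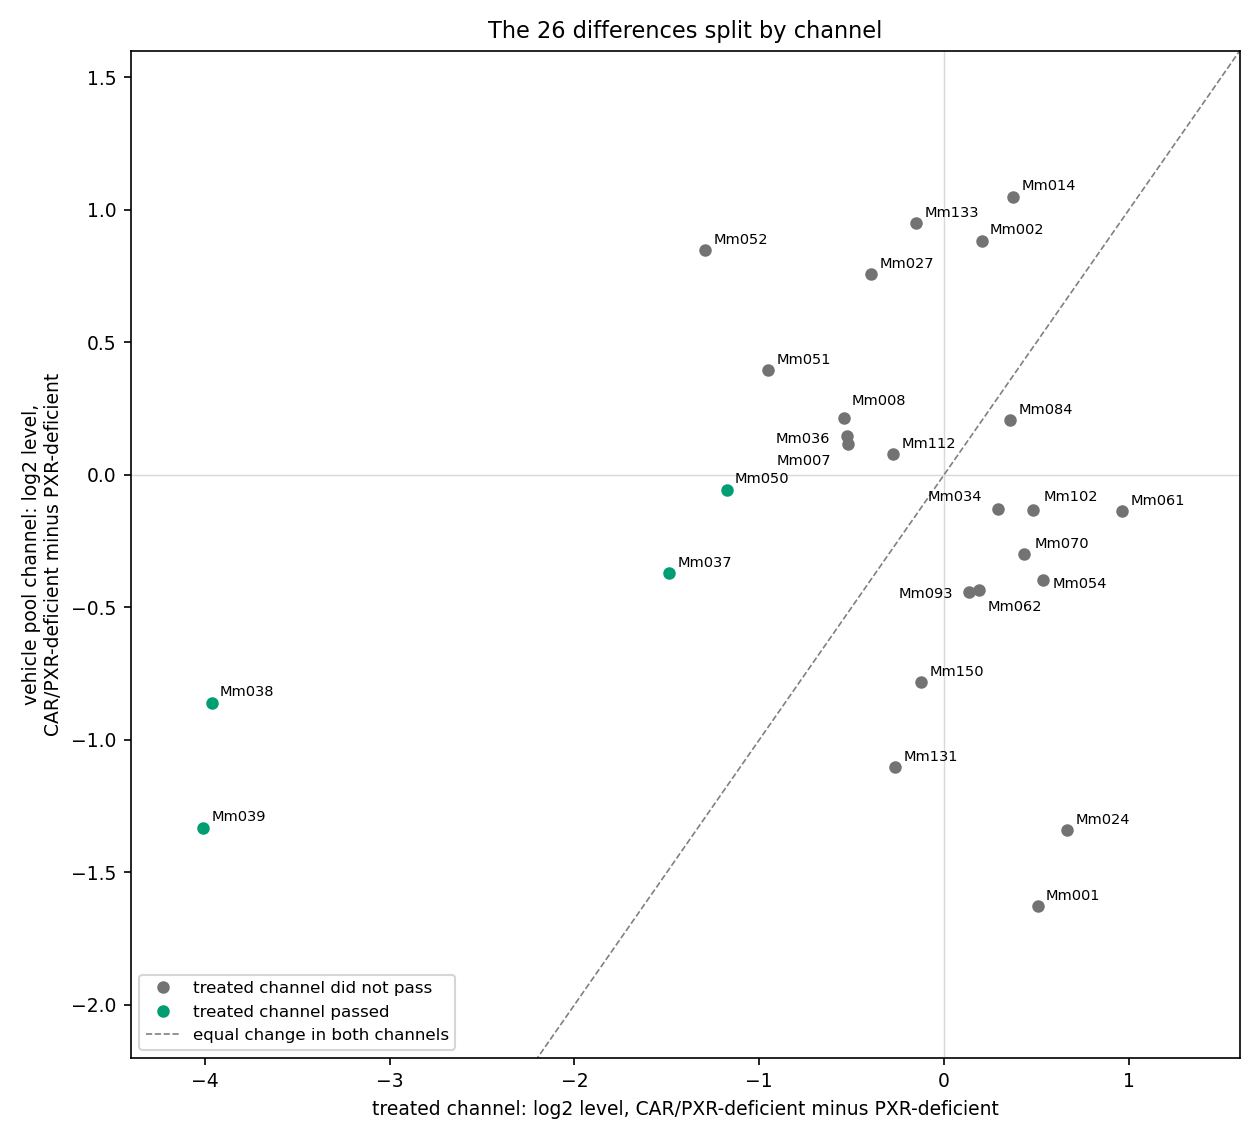
Difference between genotypes (CAR/PXR-deficient minus PXR-deficient) in the vehicle-pool channel against that in the treated channel, both in log2 level, for the 26 probes. Green points passed the test in the treated channel: Mm038, Mm039, Mm037 and Mm050 lie to the left, while Mm001, Mm133 and Mm014 lie near the middle, displaced mainly in the pool channel.

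Whether CAR loss acted differently without PXR than with it was tested as an interaction, the difference above minus that between CAR-deficient and WT mice, which shares no array with it. It passed for 11 of 78 probes (14.1%), 2 with a higher (2.56%) and 9 with a lower value (11.5%) without PXR, and 25 passed at an unadjusted p under 0.05. In mice with PXR, CAR loss changed the response for 1 of the same 78 probes (1.28%), Mm039. Each response is against 1 pool per genotype, so the interaction test leaves out the variation between pools. For Mm001, Mm002, Mm014, Mm027 and Mm133, all with an interaction, the pools differed more than the treated livers in the comparison without PXR. The part of the pools in the interactions was not tested.

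Mm001 had the largest interaction, 2.32 (SE 0.48, adjusted p = 0.00262): its difference of log2 ratios was 2.13 without PXR and -0.19 with PXR. WT samples of Mm001 fell into 2 levels: replicates 2 and 6 read 1.48 and 1.64, and the others from -1.18 to -0.41. These 2 arrays were nearly alike (r = 0.98, variance ratio 1.79) but counted as 2 samples, so leaving out 1 keeps the other. The interaction of Mm001 still passed with other alike pairs of arrays counted once. Those of Mm013, Mm027, Mm036, Mm046 and Mm112 were lost in that setting. WT replicates 2 and 6 also lay apart for Mm102 (0.64 and 0.80, the other WT samples 0.10 to 0.43). The same held for Mm027 (-0.41 and -0.53, the others 0.24 to 0.62) and Mm036 (-0.25 and -0.31, the others -0.002 to 0.58). Mm102 was the other probe with a positive interaction (0.92, SE 0.18, adjusted p = 0.00242), with differences of 0.61 without and -0.31 with PXR.

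For Mm051 the differences were -1.35 without and 0.10 with PXR (interaction -1.44, SE 0.31, adjusted p = 0.00262). The latter was against WT samples that scattered between -0.41 and 1.12, with replicates 2, 5 and 6 at -0.07, -0.11 and -0.41. The differences of Mm014 had opposite signs, -0.86 without and 0.54 with PXR (interaction -1.40, SE 0.37, adjusted p = 0.0166). So did those of Mm002, -0.68 and 0.29 (-0.97, SE 0.26, 0.0166). Neither difference with PXR passed. WT values of Mm014 scattered from -1.18 to -0.001. For Mm002 the alike WT replicates 2 and 6 read -0.67 and -1.17, and the other WT samples from -0.18 to 0.12. Mm027 (-1.08, SE 0.30, 0.0186), Mm133 (-1.003, SE 0.25, 0.00958), Mm112 (-0.71, SE 0.22, 0.033) and Mm036 (-0.70, SE 0.21, 0.0271) had differences between -0.10 and 0.06 with PXR. Mm013 (-0.96, SE 0.28, 0.033) and Mm046 (-0.75, SE 0.25, 0.0424) passed the interaction without passing in the PXR-deficient comparison, where they differed by -0.44 and -0.34.

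The loss of the Mm039 response was seen with and without PXR. Mm039 differed by -3.27 without PXR and by -2.59 with it, and its interaction of -0.68 (SE 0.66) did not pass (adjusted p = 0.538), which does not show that the effects were equal. It gave ratios on 2 CAR-deficient arrays, and Mm038 and Mm024 gave none, so these 2 probes have no interaction value. Single samples decided some interactions: without PXR-deficient replicate 4 the count fell to 6, and Mm027 (adjusted p = 0.0529), Mm036 (0.0555), Mm112 (0.0763), Mm013 (0.0685) and Mm046 (0.0555) no longer passed. Without CAR-deficient replicate 5 it fell to 7, with Mm036 (0.0511), Mm112 (0.0511), Mm013 (0.0541) and Mm046 (0.0562) lost. Without WT replicate 6, Mm112 was also lost (adjusted p = 0.0981), and Mm013 kept 1 WT value, with an interaction of -0.70. Mm013 had WT ratios only in replicates 1 and 6, and PXR-deficient ratios only in samples 1-2, 3 and 4. Mm112 had WT ratios in replicates 1, 3 and 6. WT replicate 6 had no flagged spots and gave values for all 120 probes, though 55 were above background. Under spike-in centring no interaction passed (8 at an unadjusted p under 0.05 in the same limma fit), and the authors' deposited table gave 1.

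**Figure D5:**
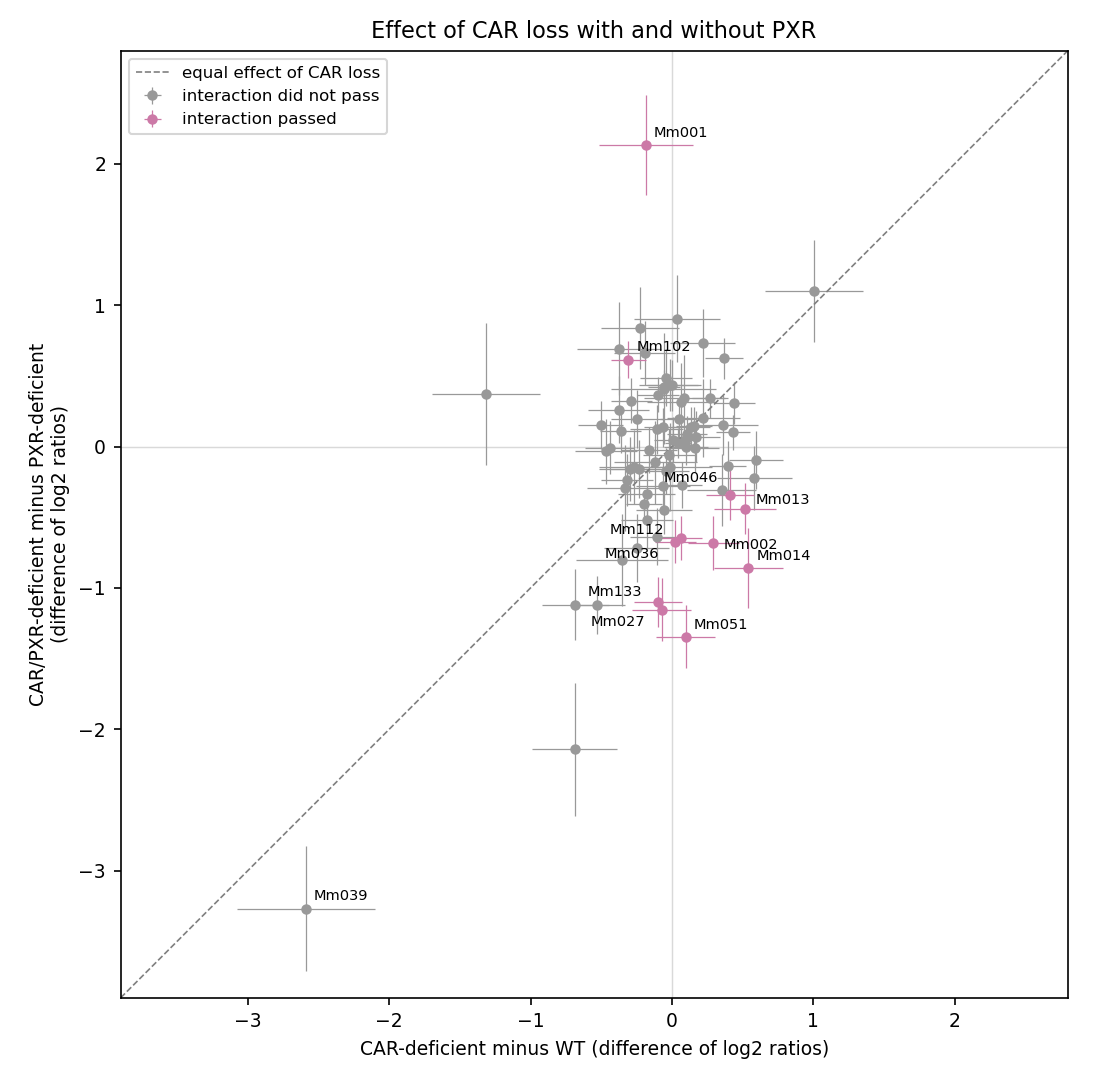
Difference of log2 ratios with CAR loss in mice without PXR (CAR/PXR-deficient minus PXR-deficient) against that with PXR (CAR-deficient minus WT), with bars of 1 SE from the limma fit. Pink points passed the interaction test: Mm001 lies high above the dashed line of equal effect and Mm051 well below it, while Mm039 lies nearer the line at the lower left.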

How the data were processed

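RNA of phenobarbital-treated livers (Cy5) and of genotype-matched vehicle pools (Cy3) was hybridized to 24 arrays of 578 spots, 360 of them mouse probe spots. Per the file headers, each deposited spot file lists, for both channels, mean and median pixel intensity, local background with its SD and saturation in percent, plus 1 flag for each spot. The scanner is not given in the sources used here. In the authors' value table the deposited log2 values correlated with the raw log2 ratios of the same arrays (Cy5 over Cy3, r from 0.78 to 0.99), so a positive value means treated over pool. Their centring is not stated, and array medians ran from -0.43 to 2.95. The table and spike-in centring may share their scaling.

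Analyses used R 4.3.3 with limma 3.58.1, and figures Python 3.11.15, pandas 2.3.3 and matplotlib 3.10.9. Mean intensities were background-corrected (normexp, offset 50) and normalized by loess within arrays over unflagged probe spots. Flagged spots were left out and copies averaged, so a sample with every spot of a probe flagged has no value and was dropped for that probe. All 23 samples entered 1 group-means fit (lmFit, eBayes) with a shared spread, with Benjamini-Hochberg adjustment over all tested probes of a comparison and a threshold of 0.05. Channel levels came from Aquantile normalization after loess, with only spots flagged as saturated left out. Intensities are not counts, so no depth is given: the number of arrays limits the precision. The fit was tested on simulated data.

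The rule for naming was every probe that passed, with values per sample for the 10 highest and 10 lowest, the 3 nearest to the threshold, and the probes that passed the interaction or the treated-channel test. The comparison and the rule were chosen with earlier results of these data known. Samples were grouped by their titles and genotype labels. Same-numbered samples of the 2 groups were checked for shared deviations (r of -0.12 to 0.58), which did not pair them. Planned gene lists and liver markers were not used, since probes have no gene names here. For WT replicate 1 a label of the second channel names phenobarbital and others the vehicle pool; it was read as the pool.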

Additional observations from a re-analysis of the deposited data

Results flagged for a closer look

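In 61 groups of 4 to 10 samples tested by Dixon's criterion, 2 had a sample far from the others, and chance gives about 1 such group in 20. PXR-deficient replicate 5 had a log2 ratio of -0.77 for Mm062, while the other 4 samples of its group lay between -0.18 and 0.02. CAR/PXR-deficient replicate 6 had a log2 ratio of -1.06 for Mm013, while the other 5 lay between -0.47 and -0.18.

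For 11 probes the effect of CAR loss on the response differed between mice without and with PXR by the interaction test, which leaves out the variation between pools. The interactions, on the log2 scale as the difference without PXR minus that with PXR, were 2.32 for Mm001 and 0.92 for Mm102. They were -1.44 for Mm051, -1.40 for Mm014, -1.08 for Mm027, -1.003 for Mm133 and -0.97 for Mm002. Mm013 had -0.96, Mm046 -0.75, Mm112 -0.71 and Mm036 -0.70. Of these, Mm013 and Mm046 lost the call in 19 and 25 other settings, Mm112 in 16, Mm036 in 11, Mm027 in 8 and Mm133 in 5. Mm014 and Mm002 each lost it in 4, Mm051 in 3, and Mm001 and Mm102 each in 2.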

How the results depend on the processing

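The count of 26 differences ran from 12 to 37 over the alternatives and moved by more than 1.5 times within slide positions (13 at the high and 12 at the low position) and at a threshold of 0.01 (17). The interaction count of 11 was 6 with median centring, 0 with spike-in centring (8 at an unadjusted p under 0.05 in the limma fit) and 5 with scale normalization. It was 17 with saturated spots kept, 1 in the authors' deposited table and 7 with other alike pairs of arrays counted once. It was 2 at the high position, 7 with neighbouring numbers as a random block, and 4 and 21 at thresholds of 0.01 and 0.1. Only WT replicate 6 of the WT arrays lay at the low position, so no interaction count is given there. The 27 responses in CAR/PXR-deficient liver became 77 with spike-in centring, 74 in the authors' deposited table, 15 without replicates 1 and 2, and 13 and 4 at the high and low position. The 26 responses in PXR-deficient liver became 12 in the authors' deposited table, 15 with other alike pairs counted once, 13 and 14 at the high and low position and 15 at a threshold of 0.01. The 5 treated-channel calls became 2 with the stricter filter, 8 with all 24 arrays counted, 3 without PXR-deficient replicates 5 and 6, 9 with the replicate block, 9 with slide position as a block, 2 at the high position and 3 with the random block. The causes were not tested.

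Leaving out 1 of the 11 samples of the comparison gave 19 to 27 differences, 20 to 29 and 15 to 30 responses in CAR/PXR-deficient and PXR-deficient liver, and 4 to 5 treated-channel calls. Leaving out 1 of all 23 samples gave 6 to 15 interactions; the WT and CAR-deficient samples were added to this after the data were seen. The lowest counts of differences, interactions and PXR-deficient responses (15; 16 without replicate 3) came without PXR-deficient replicate 4. Replicate numbers did not pair the samples: with the replicate block and all 24 arrays counted, 34 differences and 11 interactions passed, and 0 of 6 samples correlated best with its own number.

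Signs as given turned under 2 scales only, by the shift of the median described above. With spike-in centring the differences became 0.17 for Mm002, 0.058 for Mm007, 0.041 for Mm008, 0.19 for Mm014, 0.88 for Mm084 and 0.35 for Mm112. In the authors' deposited table they were 0.53 for Mm002, 0.49 for Mm007, 0.39 for Mm008, 0.13 for Mm014, 0.17 for Mm036, 0.55 for Mm084, 0.38 for Mm112 and 0.085 for Mm133. The responses in CAR/PXR-deficient liver became 0.73 and 0.95 for Mm002 (spike-in centring, then the authors' deposited table), 0.21 and 0.36 for Mm014, 0.66 and 0.74 for Mm027, 0.95 and 0.91 for Mm084, 0.88 and 1.004 for Mm112, and 0.54 and 0.80 for Mm133. In PXR-deficient liver they became 0.45 and 0.28 for Mm034 and 0.18 and 0.028 for Mm131, and with spike-in centring 0.18 for Mm070. Of the 26 differences, 5 (Mm001, Mm024, Mm038, Mm039 and Mm052) passed in the same direction in every setting that gave a value. Every setting used the same 1 pool per genotype, so none could test a difference between the pools.

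Small counts of samples, flagged spots and signals near background limit these values. Mm052 rests on 2 samples a group, and Mm038, Mm039, Mm024, Mm084 and Mm093 were not above background on at least 4 of 6 arrays in each channel of both groups.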
